A study of Danio rerio with 4 samples.

Results

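This account covers growth factor and receptor families other than Bmp in cells sorted from zebrafish heads. The members are all genes of the deposited table whose symbol starts with 1 of 31 family names (*fgf*, *igf*, *pdgf*, *gdf*, *tgfb*, *notch*, *fzd*, *angpt* and others), which gave 20 of 756 genes. Of these 20, 18 encode a ligand, receptor, binding protein or matricellular protein of a signaling family, and 2, *metrnl* and *jagn1a*, match only by the start of their symbol. The libraries were made from dissected heads at 48 hpf of larvae with wildtype genotype that carried the BAC transgene TgBAC(*apln*:Venus-PEST) together with the endothelial membrane reporter Tg(*kdrl*:Hsa.HRAS-mCherry). One group is Venus positive, mCherry negative cells and the other is cells negative for both reporters (double negative), with 2 Smart-seq2 bulk RNA-seq libraries in each. All larvae carried both transgenes, so Venus marks cells in which *apln* regulatory sequence on the BAC is active, and endothelial cells, marked by mCherry, entered neither group. Double negative cells are therefore a mixture of all other head cells. No source used here says how many larvae were pooled or whether the 2 libraries of each group stem from different clutches, so the p-values given here speak only of the spread among these 4 libraries.

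Secreted growth factors bind receptors on the same or neighboring cells, and the supply of ligand is tuned by binding proteins, decoy receptors and the matrix. TGF-β ligands are secreted in a latent form and act through receptor serine/threonine kinases and Smads. Pdgf, Fgf and Igf act through receptor tyrosine kinases, Notch through contact between cells, and Wnt through Frizzled receptors. Pdgfra signaling is a known feature of mesenchymal cells and fibroblasts, which also form the meninges.

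Of the 20 genes, 19 were higher and 1, *jagn1a*, was lower in Venus positive, mCherry negative cells than in double negative cells. Calls are from edgeR's quasi-likelihood test, Benjamini-Hochberg adjusted, with the authors' size factors. The libraries were also scaled over the listed genes alone by TMM and RLE, the methods of edgeR and DESeq2. *cyr61*, *metrnl*, *hhip* and *tgfb3* then turned in sign with both, and *fzd2* and *ednraa* with RLE only. Such scaling sets the middle of a mostly higher list near no change, and shifted its median log2 fold change by -1.77 or -1.87. Turns in sign among the smaller changes were thus bound to occur and do not decide their direction. The whole table gives the background for the count of higher members. It holds the 756 genes, of 23016 tested, that the authors had called different between these same libraries. Of the 754 tested here 100% passed, 64.2% as higher and 35.8% as lower. A call among the members was therefore fixed by the way the table was made, and the share of members that was higher (95%) is given as a description. The same p-values were then adjusted for the 23016 genes the authors tested. Genes outside the table have no p-value here and were counted as if theirs were larger, so these adjusted p can be too large. With this adjustment, 7 of the 20 members passed, all as higher. Of the listed genes, 55.4% passed in either direction (29.7% as higher, 25.7% as lower). The 7 were *igfbp2a*, *pdgfrl*, *igfbp7*, *angptl5*, *lpar1*, *fgfrl1b* and *notch2*. The other 13 did not pass, with adjusted p from edgeR of 0.0502 (*tgfb1a*) to 0.321 (*fgfr1b*). The 35% of members called higher lies near the 29.7% of the table. Among higher genes alone, 36.8% of the members passed, against 46.3% of the table. The median log2 fold change was 1.95 over the members and 1.85 over all listed genes. Among the 19 higher members it was 1.97, below the 2.39 of the 484 higher genes of the table, and 7 of the 19 lay above that value. The groups did not overlap for any of the 20 members, nor for any gene of the table (100%).

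In bulk libraries, a larger share of cells that express a gene and more RNA per cell cannot be told apart. Reporter and cell type markers describe the sort. *apln*, whose reporter was sorted on, had 651 and 802 normalized read counts in double negative replicates 1 and 2, and 11006 and 8899 in the Venus positive libraries that the table numbers 3 and 4. Values below follow this order of libraries. A normalized read count is the number of reads of a gene divided by the size factor the authors gave the library. Of 15 fibroblast and meningeal markers, 12 were listed, *pdgfra* among them, and all 12 were higher. Their summed level was 7978 to 9409 normalized read counts in double negative and 37785 to 44357 in Venus positive libraries. *col1a1a*, *col1a2* and *foxc1b* were not among the listed genes. Of 14 erythrocyte markers, 12 were listed and all were lower, with a summed level of 151327 to 278290 normalized read counts in double negative and 2821 to 4039 in Venus positive libraries, and *gata1a* and *hbae5* at 0 in the latter. Of 16 epithelial markers, 6 were listed and lower, with sums of 195591 to 298844 against 18582 to 45977. Some epithelial genes outside that list went the other way. *krt94* (102 and 73.6 against 608 and 468) was higher, as were *krt18* (5395 and 5614 against 16687 and 14883) and *pkp3b* (283 and 240.3 against 861 and 875), both with their sign turned by scaling over the listed genes. *krt18* did not pass without double negative replicate 1 (adjusted p = 0.0572 from edgeR). Of 9 pigment and neural crest markers, 3 (*pmela*, *pnp4a* and *sox10*) were listed and lower, with sums of 3779 to 4083 against 941 to 1412. None of the 18 endothelial, 11 neuronal, 10 neural progenitor, 9 pericyte, 6 cartilage, 8 muscle and 9 leukocyte markers chosen is among the listed genes, but these lists are short. Muscle genes outside them were higher, with *cacng1a* at 0.822 and 0 against 62.8 and 52.1 normalized read counts, *chrng* at 0 and 1.02 against 55.3 and 36.4 and *obsl1a* at 0 and 0 against 35.2 and 33.0. The neural genes *foxn4* (2761 and 3752 against 1199 and 1208), *insm1a* (1550 and 2242 against 587 and 794) and *lhx5* (1287 and 1029 against 420 and 408) were lower, and each lost its call without 1 or more of the libraries (largest adjusted p from edgeR 0.0684, 0.0756 and 0.0537). The heat shock genes *hsp70l* (74.8 and 340 against 1459 and 2213) and *hsp70.1* (1075 and 3342 against 5754 and 19186) were higher, and both differed widely between the double negative replicates. *hsp70.3* (1181 and 3639 against 4732 and 25113) was higher as well but did not pass without Venus positive library 4 (adjusted p = 0.116 from edgeR), and reads of both genes could have been split between near copies. The log2 fold change of *hsp70l* was 2.43 without double negative replicate 1 and 4.62 without replicate 2. That of *hsp70.1* was 1.38 without Venus positive library 4. The marker lists were chosen with earlier results of these data known, and the authors reported several of the fibroblast and meningeal markers as enriched in this RNA-seq. Counts of these lists are therefore a description, beside 64.2% higher and 35.8% lower among all listed genes. The genes named here outside the marker lists were chosen after their values were seen. The part of these cell types and of the heat shock genes in the results below was not tested. Over all listed genes a library held 876579 to 1175560 reads, and the total reads of the libraries are not stated in the sources. The smallest value of any member was 18 reads.

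**Figure D1:**
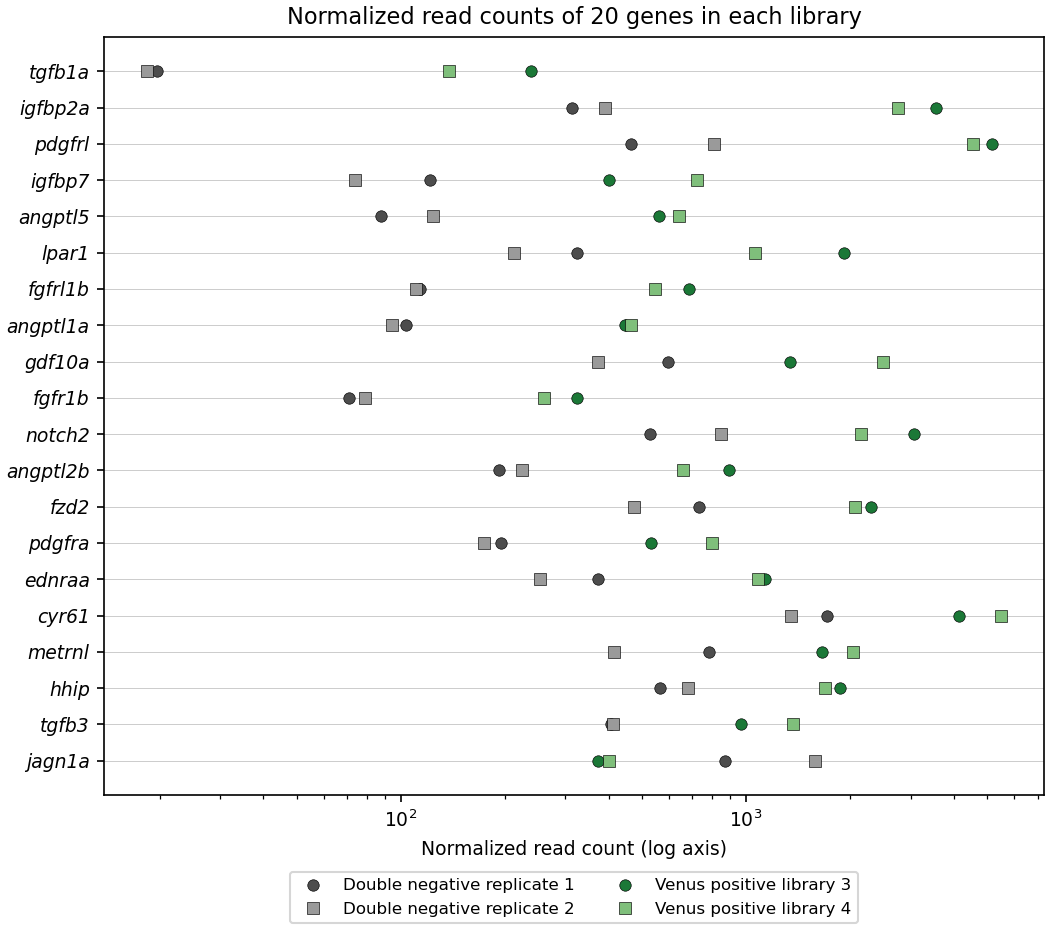
Normalized read counts (log axis) of the 20 genes in each of the 4 libraries, ordered by log2 fold change. Grey symbols are the double negative libraries and green symbols the Venus positive, mCherry negative libraries. With the authors' size factors, the green symbols lie to the right of the grey symbols for 19 genes and to the left for *jagn1a*. Scaling over the listed genes turned the sign of *cyr61*, *metrnl*, *hhip* and *tgfb3* with TMM and RLE. It turned that of *fzd2* and *ednraa* with RLE only.

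The 3 ligands of the TGF-β superfamily were all higher in Venus positive cells, *tgfb3* with its sign turned by TMM and RLE, the scaling methods of edgeR and DESeq2, over the listed genes. *tgfb1a* (NCBI gene 359834), a TGF-β ligand, had 19.7 and 18.4 normalized read counts in double negative and 239 and 138 in Venus positive libraries. Its double negative level was the lowest of all members, and the mean of the Venus positive libraries was 9.88 times that of the double negative libraries. Its log2 fold change of 3.29 (standard error 0.82, 95% interval 1.56 to 5.03) was the largest of the 20, with an adjusted p of 0.0016 over the listed genes and 0.0502 over the 23016 genes. *tgfb3* (369195), a second TGF-β ligand, had 407 and 411 normalized read counts in double negative and 968 and 1367 in Venus positive libraries. The double negative libraries were nearly equal, and the groups stood 2.35-fold apart at their nearest values. Its log2 fold change of 1.51 (standard error 0.48) was the smallest among the higher members, and came to 1.24 without Venus positive library 4. The adjusted p of *tgfb3* from edgeR was 0.0061 over the listed genes and 0.188 over the 23016 genes. *gdf10a* (563003), a ligand of the same superfamily related to Bmp3, had 593 and 372 against 1345 and 2498 normalized read counts (log2 fold change 1.99, standard error 0.50). The Venus positive libraries differed 1.86-fold in its level, the widest spread between these libraries among the members.

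Levels of different genes can be compared only per transcript length. For this, each gene's normalized read counts were multiplied by the ratio of its mean TPM (reads per transcript length and library total, as deposited) to its mean normalized read count in the double negative libraries, which is called the length-scaled level here. On this scale *tgfb3* was the more abundant TGF-β ligand in every library. The level of *tgfb1a* was 0.0646 and 0.0597 times that of *tgfb3* in the double negative libraries and 0.329 and 0.134 times that of *tgfb3* in the Venus positive libraries. This ratio was higher in both Venus positive libraries, but it rested on 24 and 18 *tgfb1a* reads in the double negative libraries. The 95% intervals of the log2 fold changes of both genes overlap (0.51 to 2.52 for *tgfb3*), and the difference between the genes was not tested.

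Of 33 other genes of TGF-β and activin signaling (receptors, Smads, inhibitors and carriers), 6 were listed and all 6 were higher, 5 of them also when adjusted over the 23016 genes. Of all listed genes, 64.2% were higher, and 29.7% were higher and passed that adjustment. As the list was chosen with earlier results of these data known, its counts are given as a description. *fstl3*, which binds and blocks activins in mammals, had 102 and 128 normalized read counts in double negative and 1243 and 2615 in Venus positive libraries (log2 fold change 4.07, standard error 0.55). *thbs1a* and *thbs1b*, thrombospondins that can release TGF-β from its latent complex in mammals, had log2 fold changes of 3.15 and 2.24. *vasna*, related to the mammalian TGF-β binding protein vasorin, had 2.00, and the follistatin-like genes *fstl1a* and *fstl1b* 2.36 and 1.47 on the same log2 fold change scale. The sign of *fstl1b* turned with TMM and RLE scaling, and it did not pass without double negative replicate 1 (adjusted p = 0.0694 from edgeR). The log2 fold change of *fstl1a* was 1.60 without Venus positive library 3 and that of *fstl3* was 3.44 without Venus positive library 4. The other 27 genes of the list, the activin receptors among them, are not among the listed genes. That a gene is not listed says nothing of whether its level was equal in both groups.

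Among the members, the receptor tyrosine kinases *pdgfra* and *fgfr1b* were each listed with a related gene of their family whose product lacks a kinase domain. *pdgfra* (386856), the Pdgf receptor of mesenchymal cells, had 196 and 175 normalized read counts in double negative and 532 and 797 in Venus positive libraries. *pdgfrl* (393284), whose human counterpart is a secreted Pdgf receptor-like protein without kinase, had 464 and 807 against 5171 and 4552. Both Venus positive libraries lay at least 5.64-fold above both double negative libraries for *pdgfrl* and at least 2.72-fold for *pdgfra*. The log2 fold changes were 2.94 (standard error 0.48, 95% interval 1.92 to 3.95, adjusted p = 1.0e-04 from edgeR, 0.00315 over the 23016 genes) and 1.84 (standard error 0.54, 95% interval 0.70 to 2.98). In length-scaled levels, *pdgfrl* exceeded *pdgfra* by 6.69-fold and 13.0-fold in the double negative libraries and by 27.4-fold and 16.1-fold in the Venus positive libraries.

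*fgfrl1b* (497135), an Fgf receptor-like protein that lacks the intracellular kinase in other vertebrates, had 113 and 110 normalized read counts in double negative and 686 and 546 in Venus positive libraries. This was a log2 fold change of 2.46 (standard error 0.58). The edgeR p was 0.0011 adjusted over the listed genes and 0.034 over the 23016 genes. *fgfr1b* (567905), a kinase receptor of Fgf ligands, had 70.7 and 78.7 against 324 and 260 (log2 fold change 1.97, standard error 0.68, 95% interval 0.52 to 3.41). Its adjusted p was the largest of the members at 0.0105, and it did not pass without double negative replicate 1 (0.0898) or replicate 2 (0.0684). A gene without a family symbol in the table, *LOC569566*, is named *fgfr1bl* in RefSeq and had 128 and 85.9 against 554 and 275 normalized read counts (log2 fold change 1.95, its sign turned by RLE scaling over the listed genes). As its name marks it as a near relative of *fgfr1b*, reads could have been split between both genes by the alignment, and their values are uncertain to that extent. *LOC569566* did not pass without double negative replicate 2 (adjusted p = 0.0646 from edgeR) or Venus positive library 3 (0.0611, log2 fold change 1.36). In length-scaled levels, *fgfrl1b* exceeded *fgfr1b* by 1.52-fold and 1.33-fold in double negative and by 2.01-fold and 1.99-fold in Venus positive libraries. This does not hold for *LOC569566*, with length-scaled levels of 6.91 and 4.63 in double negative and 29.9 and 14.8 in Venus positive libraries. Those of *fgfrl1b* were 3.50 and 3.40, and 21.2 and 16.8. *LOC569566* thus lay above *fgfrl1b* in every library except Venus positive library 4. None of the 20 Fgf partners (*spry*, *spred*, *dusp6*, *etv* and other feedback and target genes) is among the listed genes, nor is any gene whose symbol marks an Fgf or Pdgf ligand.

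No symbol starting with *vegf* is in the table, but the table lists Vegfd under its older symbol *figf*. It had 40.3 and 58.3 normalized read counts in double negative and 606 and 265 in Venus positive libraries (log2 fold change 3.14, standard error 0.71, and 2.43 without Venus positive library 3). Of the 11 Pdgf and Vegf partners it was 1 of 2 listed. The other, *nrp2a*, a coreceptor of Vegf and semaphorins, had 908 and 900 against 3871 and 1938 (log2 fold change 1.68). *nrp2a* did not pass without Venus positive library 3 (adjusted p = 0.0685 from edgeR), and its sign turned with TMM and RLE scaling over the listed genes.

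Both Igf binding proteins among the members were higher in Venus positive cells. Igfbps bind Igf in the extracellular space and hold it from, or carry it to, its receptor. *igfbp2a* (794176) had 314 and 391 normalized read counts in double negative and 3550 and 2756 in Venus positive libraries. The groups stood at least 7.06-fold apart, the widest gap of the 20 genes. On the log2 scale the change was 3.16 (standard error 0.48, 95% interval 2.16 to 4.17), with the smallest adjusted p of the members (5.6e-05 from edgeR, 0.0017 over the 23016 genes). *igfbp7* (405860), a matrix-associated protein that binds Igf weakly in mammals, had 122 and 73.6 against 402 and 723 normalized read counts. The fitted log2 change was 2.52 (standard error 0.63). The edgeR p was 0.0016 adjusted over the listed genes and 0.0485 over the 23016 genes. Of 16 Igf partners, 1 was listed. *pappab*, a metalloproteinase of the family that cleaves Igfbps, had 27.9 and 60.3 against 430 and 102 normalized read counts, and its log2 fold change of 2.59 dropped to 1.22 without Venus positive library 3 (adjusted p = 0.182 from edgeR) and was 2.14 without double negative replicate 1 (0.0693).

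Of the receptors for contact and morphogen signals, *notch2* and *fzd2* were higher, *fzd2* with its sign turned by RLE scaling over the listed genes (described at the end). *notch2* (58065), a Notch receptor, had 526 and 846 normalized read counts in double negative and 3066 and 2163 in Venus positive libraries. The log2 change came to 1.93 (standard error 0.47). The edgeR p was 0.0015 adjusted over the listed genes and 0.0445 over the 23016 genes. No Jagged or Delta ligand and none of the 27 Notch partners, among them the *her* and *hey* target genes, is listed. *fzd2* (30370), a Frizzled receptor of Wnt ligands, had 732 and 474 against 2300.2 and 2067 normalized read counts (log2 fold change 1.86, standard error 0.46, adjusted p = 0.0017 from edgeR and 0.051 over the 23016 genes). Of 14 genes of Wnt reception and response, 3 were listed and higher (64.2% of the table was higher), *nkd1* with its sign turned by RLE scaling. *ror1*, a receptor tyrosine kinase of non-canonical Wnt signaling, had 141 and 183 against 1682 and 1039 normalized read counts. *notum1b*, related to the Wnt deacylase Notum, had 65.7 and 26.6 against 280.3 and 477. *nkd1*, an intracellular Wnt antagonist, had 785 and 907 against 3445 and 2456. The log2 fold changes of these 3 genes were 3.07, 3.03 and 1.80, and that of *notum1b* ranged from 2.53 to 3.83 with 1 library left out.

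Members and partners of the Hedgehog pathway were found at ligand, coreceptor and inhibitor level. *hhip* (326102), which binds Hedgehog ligands at the cell surface and limits their spread, had 563 and 680 normalized read counts in double negative and 1874 and 1693 in Venus positive libraries. The groups stood at least 2.49-fold apart, and the Venus positive libraries differed 1.11-fold between themselves. The difference on the log2 scale came to 1.52 (standard error 0.45), and to 1.39 without double negative replicate 1. Adjusted over the listed genes its p from edgeR was 0.0047, and 0.143 over the 23016 genes. The sign of *hhip* turned with scaling over the listed genes. Of 17 Hedgehog partners, 2 were listed, both higher and both also past the adjustment over the 23016 genes. For all listed genes these shares were 64.2% higher and 29.7% higher and past that adjustment, and the counts of this list are a description. The ligand *shha* had 191 and 274 against 1081 and 1544 normalized read counts (log2 fold change 2.50, standard error 0.50). The coreceptor *cdon* had 1264 and 999 against 6154 and 4984 (log2 fold change 2.30, standard error 0.45). *ptch* genes, which are receptors and targets of the pathway, and the *gli* genes are not among the listed genes.

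The G protein-coupled receptor genes *lpar1* and *ednraa* were both higher, *ednraa* with its sign turned by RLE scaling over the listed genes. *lpar1* (368461), a receptor for lysophosphatidic acid, had 324 and 213 normalized read counts in double negative and 1928 and 1061 in Venus positive libraries. This was a log2 fold change of 2.48 (standard error 0.52). The edgeR p was 5.3e-04 adjusted over the listed genes and 0.0162 over the 23016 genes. *ednraa* (114550), an endothelin receptor A, had 374 and 253 against 1138 and 1086 (log2 fold change 1.83, standard error 0.49). The table also lists a gene under the symbol *edn3* (101884385), the name of an endothelin ligand, which RefSeq leaves without a family name. It was outside the pathway lists, which held *edn3a* and *edn3b*, and is named after its values were seen. It had 23.0 and 118 normalized read counts in double negative and 2508 and 1680 in Venus positive libraries. The double negative libraries differ widely, and both lie far below the Venus positive libraries. Its log2 fold change was 4.90 (standard error 0.69), above that of every member, with an edgeR p of 9.9e-04 adjusted over the 23016 genes, and 4.15 and 6.50 without double negative replicate 1 and 2. Of 15 other genes for endothelins, their processing and the synthesis of lysophospholipids and prostaglandins, 1 was listed and higher. That gene, *enpp2*, encodes autotaxin, the secreted enzyme that makes lysophosphatidic acid. It had 118 and 15.3 normalized read counts in the double negative libraries, which differ widely, and 801 and 659 in the Venus positive libraries. On the log2 scale the change was 3.44 (standard error 0.76), and ranged from 2.62 without double negative replicate 2 to 5.56 without replicate 1.

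The 3 angiopoietin-like genes, which encode secreted relatives of the angiopoietins, were all higher. *angptl5* (566212) had 87.9 and 124 normalized read counts in double negative and 561 and 641 in Venus positive libraries (log2 fold change 2.51, standard error 0.59, adjusted p = 0.0011 from edgeR and 0.034 over the 23016 genes). *angptl1a* (544656) had 104 and 94.1 against 447 and 466, with the Venus positive libraries within 1.04-fold of each other, the closest pair of the members. *angptl2b* (503514) had 192 and 225 against 892 and 658. Their log2 fold changes were 2.21 (standard error 0.62) and 1.89 (standard error 0.52). Neither of the angiopoietin receptors *tie1* and *tek*, which are endothelial genes, is among the listed genes.

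*cyr61* (403033), named *ccn1* in RefSeq, encodes a matricellular protein that is a target of Yap and an immediate early gene in many cells. It had 1722 and 1352 normalized read counts in double negative and 4139 and 5489 in Venus positive libraries (log2 fold change 1.65, standard error 0.45, adjusted p = 0.0027 from edgeR), and its sign turned with scaling over the listed genes. The heat shock genes given above were higher in the same libraries, and their part in this value was not tested. None of the 13 Yap and Taz partners chosen is among the listed genes. *amot*, outside that list and named after its values were seen, encodes angiomotin, which binds Yap in mammals, and had 138 and 215 against 846 and 546 normalized read counts (log2 fold change 1.98, standard error 0.55). Neither *metrnl* nor *jagn1a* belongs to the family whose name starts its symbol. *metrnl* (406258) encodes meteorin-like, a secreted protein unrelated to the Hgf receptor Met, and had 783 and 414 against 1664 and 2044 normalized read counts. The fitted log2 change was 1.63 (standard error 0.48, adjusted p = 0.0045 from edgeR, 0.0816 with a log2 fold change of 1.24 without double negative replicate 2), and its sign turned with scaling over the listed genes. *jagn1a* (449830) encodes a jagunal protein of the endoplasmic reticulum and no Jagged ligand. It had 871 and 1583 normalized read counts in double negative and 373 and 403 in Venus positive libraries, and fell by 1.66 on the log2 scale (standard error 0.49, adjusted p = 0.0046 from edgeR). The double negative libraries differed 1.82-fold in its level, and without double negative replicate 2 it fell by 1.17 and did not pass (adjusted p = 0.0731 from edgeR). The other 18 of the 20 members, which do belong to a signaling family, were all higher with the authors' size factors. Exceptions in sign under scaling over the listed genes are given for *cyr61*, *hhip*, *tgfb3*, *fzd2* and *ednraa*. The only lower member, *jagn1a*, is not among these 18, and 64.2% of all listed genes were higher, so this count is a description. Adjusted over all genes the authors tested, 38.9% of these 18 passed as higher, against 46.3% of the higher listed genes.

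**Figure D2:**
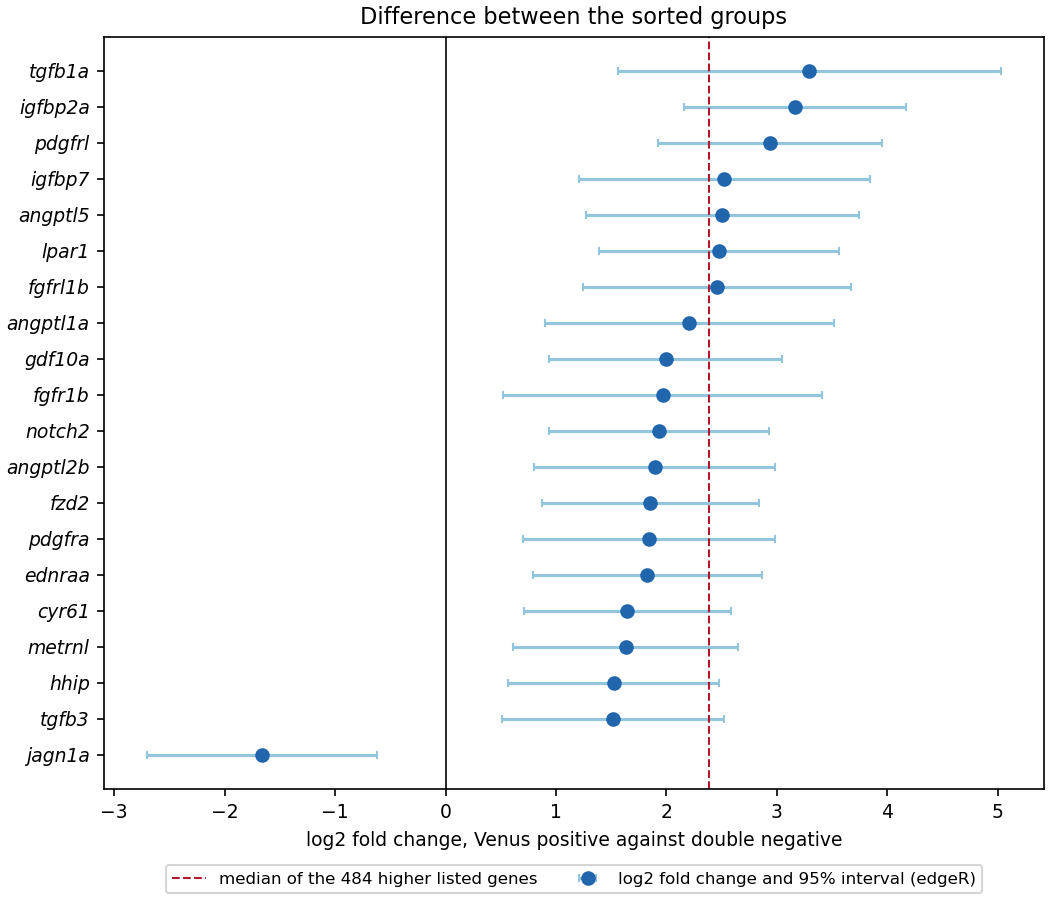
log2 fold change of Venus positive, mCherry negative against double negative cells for the 20 genes, with its 95% interval from edgeR and the authors' size factors. The dashed line is the median of the 484 higher genes of the table (2.39), and 7 members lie above it.

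Among the 16 listed partners of all 12 pathway lists (190 genes), 15 were higher and 1 was lower, against 64.2% of the table as higher. Adjusted over the 23016 genes 11 of the 16 passed, all as higher, against 29.7% of the table as higher and 55.4% in either direction. The lists were chosen with earlier results of these data known. These shares are therefore given as a description, and their difference from the table was not tested. The lower gene was *spint2*, the 1 listed of 9 Hgf partners. It encodes a serine protease inhibitor that blocks the activation of Hgf in mammals. Its log2 fold change was -2.23 (standard error 0.57), and ranged from -3.1 to -1.7 with 1 library left out. For 5 of the 12 lists (Fgf, Notch, Egf, Yap and Taz, and the angiopoietin receptors) no gene was listed. As the table holds only 756 of the 23016 tested genes, an empty short list says nothing of the activity of its pathway.

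**Figure D3:**
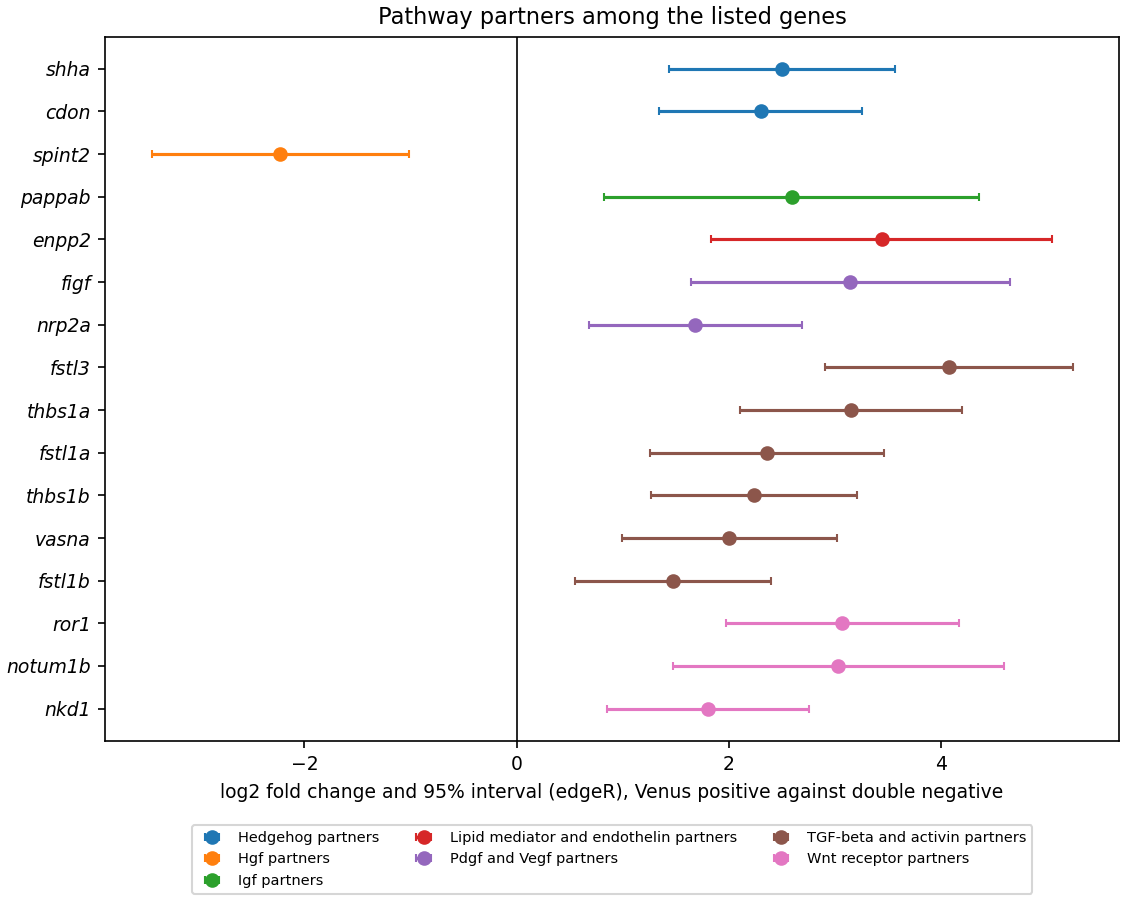
log2 fold change and 95% interval (edgeR, the authors' size factors) of the 16 listed genes from the 12 pathway lists, colored by list. *spint2* lies below 0 and the other 15 lie above it, of which *fstl1b* and *nrp2a* turned in sign with TMM and RLE scaling over the listed genes and *nkd1* with RLE.

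In length-scaled levels, *pdgfrl* was the most abundant member in Venus positive cells with 417 and 367, above all other members in both libraries. *cyr61* (182 and 241) and *igfbp2a* (232 and 179.9) followed and overlapped with each other. *metrnl* (124 and 153), *lpar1* (138 and 76.1) and *fzd2* (111 and 100.1) came next, and each overlapped with its neighbor among these 3. Below *fzd2*, neighbors overlapped again from *tgfb3* (54.3 and 76.7) to *angptl5* (35.2 and 40.3). *notch2* lay below them at 30.2 and 21.3. The lower end held *tgfb1a* and *fgfr1b*, with length-scaled levels of 17.9 and 10.3 for *tgfb1a* and 10.5 and 8.45 for *fgfr1b*. Of the 19 pairs of neighbors in this order, 15 overlapped between libraries and 4 did not. In double negative cells *jagn1a* led in both libraries with length-scaled levels of 87.6 and 159. *cyr61* (75.7 and 59.4) and *pdgfrl* (37.4 and 65.1) followed and overlapped with each other. *metrnl* (58.5 and 31.0) overlapped with *pdgfrl* as well and lay above it in double negative replicate 1.

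**Figure D4:**
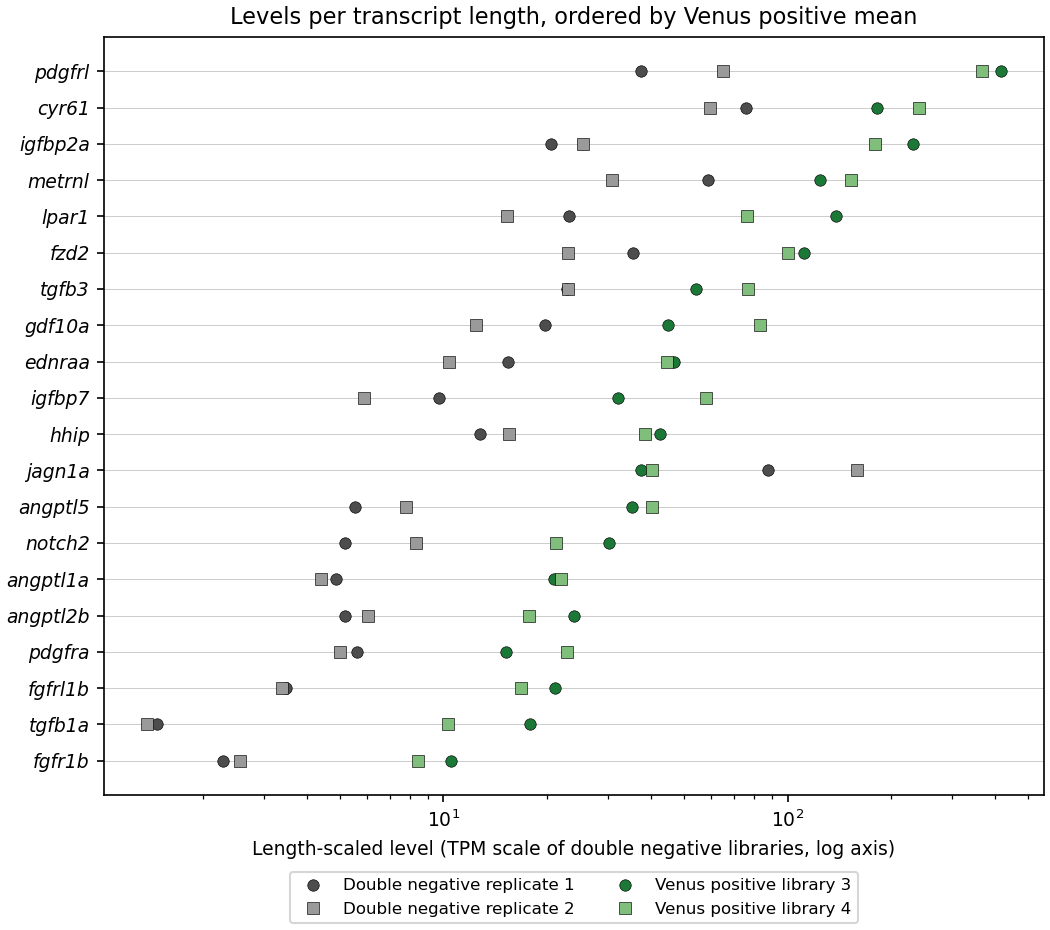
Length-scaled level (log axis, TPM scale of the double negative libraries) of the 20 genes in each library, ordered by the mean of the Venus positive libraries. Grey symbols are double negative and green symbols Venus positive libraries, and the green symbols run from *pdgfrl* (417 and 367) at the top to *fgfr1b* (10.5 and 8.45) at the bottom.

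The sign of several members depends on the scaling, as a shift of all genes turns the smaller changes. The authors' size factors gave the values above. Factors computed over the listed genes alone set the middle of this selected list near no change, and moved the median log2 fold change of all listed genes by -1.77 (TMM) or -1.87 (RLE). A turn in sign of members with changes near or below this shift was bound to occur and does not decide their direction. Of the 19 higher members, 2 then passed with either method, and *cyr61*, *metrnl*, *hhip* and *tgfb3* turned in sign with both and *fzd2* and *ednraa* with RLE. The 2 that passed were *igfbp2a* and *pdgfrl*. Among the 19, *tgfb1a* had the largest fitted change under both (1.49 with TMM and 1.38 with RLE on the log2 scale) and did not pass (adjusted p = 0.153 and 0.19 from edgeR). *jagn1a* passed as lower under both.

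**Figure D5:**
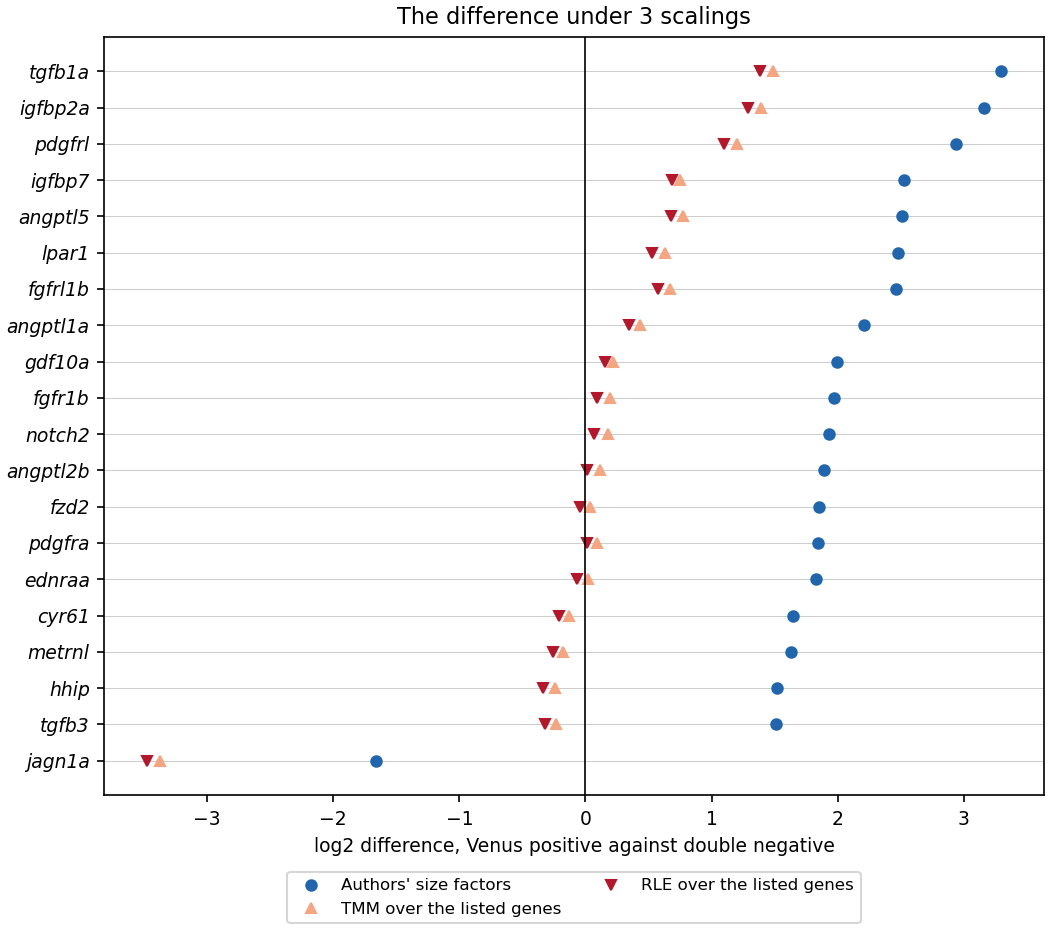
log2 difference of Venus positive against double negative cells for the 20 genes with the authors' size factors and with TMM or RLE factors over the listed genes alone. TMM and RLE shift all genes to the left, which turns the sign of *cyr61*, *metrnl*, *hhip* and *tgfb3* in both and of *fzd2* and *ednraa* with RLE.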

How the data were processed

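The deposited table holds 756 genes that all have an adjusted p below 0.05 in the comparison the authors made with DESeq2. Those deposited p-values and Q values were read only to learn how the table was filtered, and all 756 match an adjustment over 23016 genes (relative tolerance 1e-06). Its fold changes and 18 columns that compare single libraries were not used. Per the methods, the authors filtered reads with SOAPnuke, mapped them to GRCz11 with HISAT2 (2.0.4 per the submitters' processing notes), aligned them to the gene set with Bowtie2 (2.4.4) and estimated counts with RSEM (1.2.28). The annotation release is not stated.

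The columns of the Venus positive libraries are numbered 3 and 4 and the labels number these samples 1 and 2, so the columns were matched to the group but not to a sample, and only their normalized read counts were used. The other 8 columns of values per library (FPKM, and read counts and TPM of the Venus positive libraries) were left out. The authors' normalized read counts are a signal, the read count divided by 1 size factor per library. Reads and size factors (1.22 and 0.978 for double negative replicates 1 and 2, 0.796 and 1.15 for libraries 3 and 4) were recovered from them as the step of which all 756 values of a library are whole multiples (100% whole, tolerance 0.001). For the double negative libraries all 756 recovered reads equal the deposited expected counts raised to whole numbers. Recovered reads of the Venus positive libraries rest on the step. The authors' TPM of the double negative libraries gave the factor for length-scaled levels, which assumes the same isoforms in both groups. Replicates differed far beyond counting noise (chi-square per degree of freedom 185 and 190).

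edgeR 4.0.16 (R 4.3.3) was fitted to the recovered reads with the authors' size factors, with group as the only term and two-sided tests, for the 754 genes that reached 10 reads in 2 or more libraries. An adjusted p under 0.05 was called. Standard errors are the log2 fold change divided by the root of the quasi-likelihood F. The biological coefficient of variation was 0.417, from genes that had been selected by a test, so p-values can be too small. Exact permutation of 2 against 2 libraries cannot go below p = 0.333. The script was tested on simulated counts. Alternatives were DESeq2 1.42.0, TMM and RLE factors, no filter, adjustment over 23016 genes, leaving out each library and, chosen after seeing the data, limma 3.58.1 on log2(normalized read count + 1).

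Members and lists were chosen with earlier results of these data known. A further gene first chosen for the pathway lists was left out of them and is not reported here. Every member is named. Full statistics are given for the 5 largest and 5 smallest log2 fold changes and the largest of each family, and the others get values and a fold change. Identifiers are NCBI gene IDs. All 20 members were found in a RefSeq table of another assembly (GRCz12tu), used for names only.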

Additional observations from a re-analysis of the deposited data

How the results depend on the processing

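With DESeq2, without the count filter and with limma on log2(normalized read count + 1), the members gave 19 higher and 1 lower calls, as with edgeR. Adjusted over the 23016 genes, 7 members were higher and 0 lower (1 with edgeR over the listed genes and with DESeq2), and 224 of the 484 higher listed genes passed. With TMM and RLE factors over the listed genes, 2 members and 84 and 72 listed genes were higher. The log2 fold changes then turned to -0.13 and -0.21 for *cyr61*, -0.18 and -0.25 for *metrnl*, -0.24 and -0.34 for *hhip* and -0.23 and -0.32 for *tgfb3*, and with RLE to -0.047 for *fzd2* and -0.066 for *ednraa*, which follows from the shift of the list's middle. With 1 library left out, 0 to 1 members and 131 to 268 listed genes were lower, the fewer where fewer genes could be tested without a double negative replicate, and 17 to 19 members were higher. In total 15 of the 20 members passed in all 4 such fits, no member's fold moved by more than 1.45 times, and the exceptions were *fgfr1b*, *hhip*, *metrnl*, *tgfb3* and *jagn1a*. All listed genes had been selected as different between these same libraries. Most of the 484 higher listed genes also kept their call in each fit with 1 library left out. The member counts of these fits therefore do not set the members apart from the table. Matched by RefSeq symbol, *LOC569566*, *figf* and *zgc:158328* (*egfem1*) joined, with 22 higher. Rounding expected counts to the nearest whole number was not run, since the expected counts of the Venus positive libraries were not used. No paired analysis was possible because the Venus positive columns do not carry the replicate numbers of the labels. The lowest member, *tgfb1a*, rested on 24 and 18 double negative reads, and its standard error (0.82) was the largest of the members (median 0.50). Genes outside the table could not be compared.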
